A study of Mus musculus with 8 samples.

Results

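The kinases and other subunits of the chromosomal passenger complex, with the related spindle-pole kinase beside them, were followed in round spermatids from BrdtΔBD1 mutants and from controls. The members were Aurka, Aurkb, Aurkc, Incenp, Birc5 and Cdca8. They were read by 14 probe sets that the platform annotation assigns to exactly 1 gene, out of 45037 probe sets tested, and they make up 6 of 18193 genes. The set was chosen by membership of the complex with mutant against control values of these same arrays already known, so that contrast is given for the members as a description without a test. Of the 14 probe sets, 11 had a mean of at least 4 on the log2 scale over all arrays and 3 lay below it, near the floor of the array.

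Aurora kinases drive chromosome segregation. Aurora B works in a complex with the scaffold INCENP, survivin (encoded by Birc5) and borealin (encoded by Cdca8), which carry it to centromeres and later to the spindle midzone, where it destabilises faulty microtubule attachments and guides cytokinesis. Aurora C, encoded by Aurkc, is found mainly in meiotic germ cells and can take the place of Aurora B in the same complex. Aurora A, encoded by Aurka, acts with other partners at centrosomes and spindle poles. Round spermatids are haploid cells that have completed both meiotic divisions, so transcripts of these division genes are read there after the divisions have ended.

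The tested animals carried the BrdtΔBD1 allele, which removes the first bromodomain of the testis chromatin reader Brdt, and the controls were labelled only as control. Both groups were adults of 2 to 4 months on the 129 Sv/Ev strain. The data are 4 mutant and 4 control arrays, and each array holds a separate pool of round spermatids of 7 animals, obtained on an albumin gradient. Values are log2 intensities normalised by the authors, and levels of different probe sets are not compared with each other. In bulk RNA, fewer cells of a type and less RNA per cell cannot be told apart.

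The preparations read as spermatids on their markers. Round spermatid genes were bright on every array, with a mean over 26 markers of 13.04 to 13.28 on mutant arrays and 13.05 to 13.29 on control arrays. Of these markers 0 passed in limma, and at an unadjusted p under 0.05 there were 0 higher and 3 lower ones. Of the other testis cells, Sertoli and spermatogonia marker means lay apart between the groups, and those of spermatocytes, Leydig cells and the peritubular, vascular and blood list overlapped. Sertoli cell markers averaged 5.80 to 7.21 on mutant and 4.85 to 5.63 on control arrays, without overlap, and 6 of 23 passed, all higher. Of the 23 differences 21 were positive, 16 of them at an unadjusted p under 0.05, as were 0 of the negative ones. Among their defining genes Cldn11 read 5.89 in mutant and 4.17 in control arrays, Rhox5 5.63 and 4.17, Wt1 5.10 and 3.95, and Inha 5.85 and 4.31. Of these Cldn11 passed. The others that passed had larger differences. Fabp5 read 7.73 in mutant and 3.72 in control arrays (16.2-fold) and Vim 9.24 and 6.29 (7.72-fold). Aard read 10.75 and 7.70 (8.30-fold), Defb19 11.41 and 8.41 (8.03-fold), and Cst12 10.62 and 7.74 (7.37-fold). Amh (1.95 in mutant and 1.97 in control arrays) and Sox9 (3.80 in both) were near the floor. So was Trh (3.21 in mutant and 3.11 in control arrays), which the symbol lookup put in place of the listed marker Trf. Trh is thus counted among the 23 and among the positive differences. It also enters the Sertoli marker mean wherever that is used below. Spermatogonia markers averaged 4.74 to 5.48 on mutant and 4.06 to 4.50 on control arrays, with 1 of 17 past the threshold, Etv5, which was higher, and 7 higher and 0 lower before adjustment. Spermatocyte markers averaged 9.14 to 9.77 and 9.10 to 9.44 on mutant and control arrays. Of these, 1 of 25 passed the threshold, H1f6, also higher, and before adjustment 8 were higher and 2 lower. H1f6 was low in both groups, at 4.58 in mutant and 3.95 in control arrays. Peritubular, vascular and blood markers averaged 3.29 to 3.96 and 3.16 to 3.29 on mutant and control arrays, with 1 of 19 past the threshold, Lum, which was also the 1 higher gene before adjustment, with 0 lower. Leydig markers averaged 4.41 to 4.77 and 4.40 to 4.61, with 0 of 9 past the threshold and 0 at an unadjusted p under 0.05 in limma. As a measure of RNA quality, the Gapdh control probe sets read higher at the 3' than at the 5' end by 0.33 to 0.94 on mutant arrays. That excess was 1.68 and 2.05 on control arrays 1 and 3, against 0.48 and 0.46 on control arrays 2 and 4. The part of these differences in the results below was not tested.

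Promoter windows of 4 of the 6 members were found in the RefSeq table of GRCm38.p6, each 300 bases long with 250 before and 50 after the start of transcription. Aurkb and Incenp had none. The windows of Aurkc and Aurka are shown because Aurkc separated the groups and its paralogue Aurka did not. Aurkb, the paralogue whose brighter probe set ran the other way, could not be set beside them. The Aurkc window lies at chr7:6995135-6995434 on the plus strand and the Aurka window at chr2:172370521-172370820 on the minus strand. Capitals mark the letters CCAAT, read on either strand, and TTTGAA, the core of the cell cycle homology region known from promoters of G2 and mitosis genes.
Aurkc: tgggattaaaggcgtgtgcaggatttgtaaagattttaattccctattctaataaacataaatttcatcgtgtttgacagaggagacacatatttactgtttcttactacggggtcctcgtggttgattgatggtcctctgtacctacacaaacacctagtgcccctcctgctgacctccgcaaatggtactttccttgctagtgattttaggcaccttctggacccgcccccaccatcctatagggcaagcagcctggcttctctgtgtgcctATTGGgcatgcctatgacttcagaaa
Aurka: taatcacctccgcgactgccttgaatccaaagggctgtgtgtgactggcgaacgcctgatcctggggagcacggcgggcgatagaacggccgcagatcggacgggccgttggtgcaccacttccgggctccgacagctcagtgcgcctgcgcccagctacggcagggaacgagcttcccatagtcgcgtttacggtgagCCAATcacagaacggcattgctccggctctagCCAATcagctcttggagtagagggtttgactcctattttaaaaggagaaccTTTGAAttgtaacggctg
The Aurka window held TTTGAA once and CCAAT 2 times, and the Cdca8 window held TTTGAA once and CCAAT 4 times on the minus strand, 1 of them sharing its outermost base with TTTGAA. The Aurkc window held CCAAT once, on the minus strand, and no TTTGAA, and the Birc5 window held neither. Over all 32851 windows of this length, 17.9% held TTTGAA on either strand and 37.4% held CCAAT. The cyclic AMP response element TGACGTCA, to which the spermatid activator CREM binds, and its shorter form TGACG, which the longer one contains, were in 0 of the 4 windows, against 1.8% and 20.8% of all windows. The GC content was 46.0% in the Aurkc window, against 58.0% for Aurka, 51.7% for Cdca8 and 68.7% for Birc5, and the median of all windows was 52.7%. These matches describe letters in the windows and were not tested as binding sites.

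Among the catalytic subunits, Aurkc was lower in mutant spermatids. Its single probe set, 1449364_at on chromosome 7, read 8.52, 8.85, 8.39 and 8.17 on mutant arrays 1 to 4, against 10.31, 9.81, 9.41 and 9.43 on control arrays 1 to 4. Every mutant array was below every control array. The means were 8.48 ± 0.28 in mutant and 9.74 ± 0.42 in control arrays (SD, n = 4 each), a difference of -1.26 (SE 0.22), or a 2.39-fold lower intensity. The difference was negative in all 4 pairs of arrays with the same replicate number, between -0.96 and -1.79. Across all probe sets, 2.16% had a larger absolute difference.

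Aurkb, the kinase that Aurora C can replace, was higher in mutant arrays on its brighter probe set. That probe set, 1424128_x_at on chromosome 11, read 5.86, 6.80, 5.89 and 6.10 on mutant arrays 1 to 4, against 4.81, 5.18, 4.48 and 4.91 on control arrays 1 to 4. The groups did not overlap, and mutant array 2 was the highest. The means were 6.16 ± 0.44 in mutant and 4.85 ± 0.29 in control arrays (SD, n = 4 each), a difference of 1.32 (SE 0.23), or a 2.49-fold higher intensity. A second probe set, 1451246_s_at, designed from the same cDNA, read lower throughout and showed less. It gave 4.59, 4.63, 4.35 and 4.27 on mutant arrays, against 4.28, 4.45, 3.53 and 4.12 on control arrays. Its groups overlapped, with a difference of 0.36 (SE 0.20), although the mutant array was higher in all 4 pairs. In Affymetrix naming, the endings x_at and s_at mark probe sets of which some or all probes match further transcripts. Both Aurkb readings may thus take in signal of related sequences, and their disagreement was not resolved. The same limit holds for the Incenp and Cdca8 probe sets with these endings below.

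Aurka, the spindle-pole kinase on chromosome 2, did not separate the groups. Its bright probe set 1424511_at read 11.69, 12.38, 11.70 and 11.79 on mutant arrays 1 to 4, against 12.42, 12.37, 11.79 and 12.12 on control arrays 1 to 4. Mutant array 2 stood with the upper controls, and the other mutant arrays lay at about or below the lowest control array, 3. The means were 11.89 ± 0.33 in mutant and 12.17 ± 0.29 in control arrays (SD, n = 4 each), a difference of -0.29 (SE 0.20). The second probe set, 1440129_at, was near the floor, with means of 2.57 in mutant and 2.58 in control arrays.

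**Figure D1:**
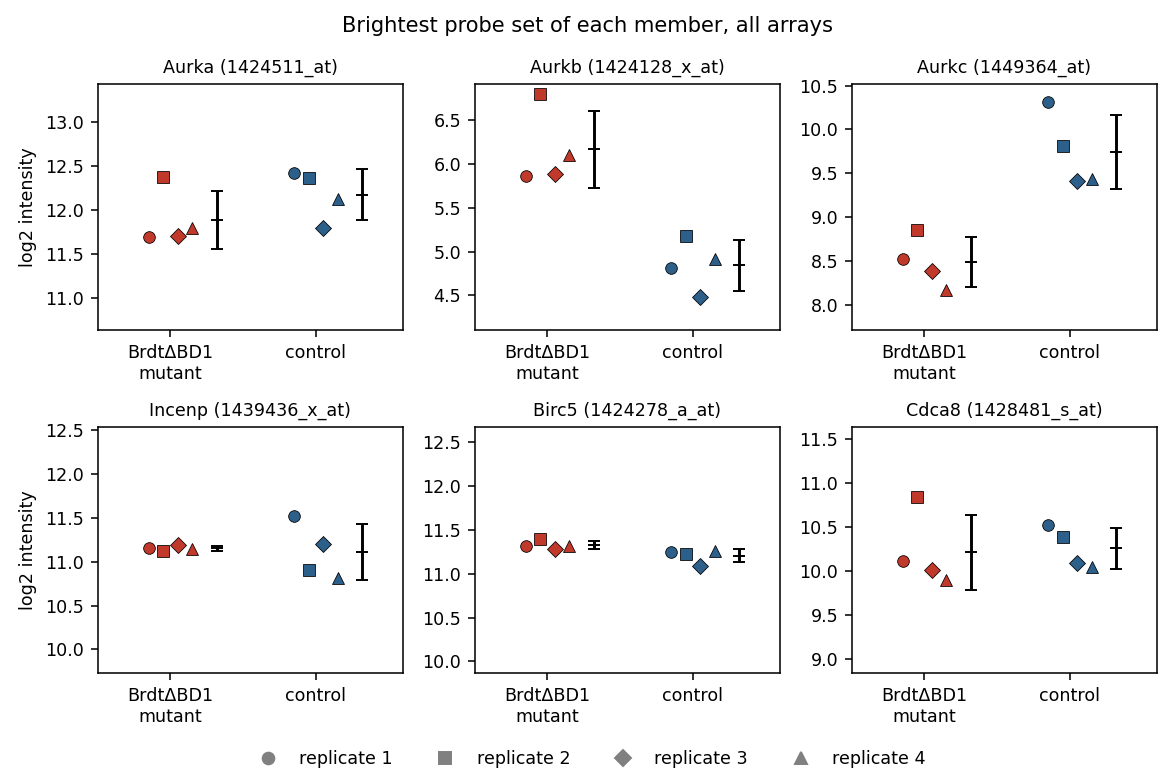
Log2 intensity of the brightest probe set of each member on the 4 mutant (red, left) and 4 control (blue, right) arrays, with symbols for the replicate number and black bars for mean ± SD. All panels span the same number of log2 units, and the groups lie apart for Aurkc (8.17 to 8.85 in mutant, 9.41 to 10.31 in control) and for Aurkb (5.86 to 6.80 in mutant, 4.48 to 5.18 in control).

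Among the non-catalytic subunits the differences were small. Birc5, the survivin gene on chromosome 11, was the steadiest. Its probe set 1424278_a_at read 11.31, 11.40, 11.28 and 11.32 on mutant arrays, against 11.25, 11.22, 11.09 and 11.26 on control arrays. The mutant arrays were all above the controls, but by a difference of 0.12 (SE 0.09), or 1.09-fold. The means were 11.33 ± 0.05 in mutant and 11.21 ± 0.08 in control arrays (SD, n = 4 each).

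Incenp, the scaffold gene on chromosome 19, was read by 5 probe sets. The brightest, 1439436_x_at, gave 11.16, 11.12, 11.19 and 11.14 on mutant arrays, against 11.52, 10.91, 11.20 and 10.81 on control arrays. The mutant values lay inside the control range, with an SD of 0.03 against 0.32, and the means differed by 0.04 (SE 0.15). The probe set 1423092_at behaved alike, at 9.98 ± 0.11 in mutant and 9.94 ± 0.41 in control arrays (SD, n = 4 each), a difference of 0.04 (SE 0.19). A further one, 1423093_at, designed from the same cDNA as 1423092_at, followed the replicate number rather than the genotype. It read 3.65, 4.92, 3.73 and 5.13 on mutant arrays 1 to 4, against 3.48, 6.28, 2.90 and 5.49 on control arrays 1 to 4. Arrays 2 and 4 of both groups were high and arrays 1 and 3 low, and control arrays 1 and 3 are those with the large Gapdh excess at the 3' end. On mutant arrays 1 to 4 the Gapdh excess was 0.60, 0.33, 0.94 and 0.59, so arrays 1 and 4 read alike there but not on 1423093_at. They also read unlike on the 18S control probe sets, at 8.11 and 3.99. Without control arrays 1 and 3 the difference of 1423093_at went to -1.53 (SE 0.50) from -0.18 (SE 0.74) with all arrays. Whether RNA quality sets this reading was not tested. The other 2 Incenp probe sets, 1439252_at and 1441314_at, were near the floor, with differences of -0.13 (SE 0.13) and -0.19 (SE 0.18).

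Cdca8, the borealin gene on chromosome 4, was read by 3 probe sets that moved together across arrays. The brightest, 1428481_s_at, gave 10.11, 10.84, 10.01 and 9.90 on mutant arrays, against 10.52, 10.39, 10.09 and 10.05 on control arrays. Mutant array 2 was the highest and the groups overlapped, with a difference of -0.04 (SE 0.22). The probe set 1436847_s_at read 9.83, 10.33, 9.52 and 9.05 on mutant arrays, against 10.26, 9.74, 9.66 and 8.92 on control arrays, a difference of 0.04 (SE 0.33). The third, 1428480_at, read 8.94, 10.13, 8.51 and 8.42 on mutant arrays, against 9.65, 9.63, 8.59 and 8.93 on control arrays, a difference of -0.20 (SE 0.40). On all 3 the pair with replicate number 2 was the one most in favour of the mutant array, by 0.45, 0.59 and 0.50, while pair 1 ran the other way, at -0.41, -0.43 and -0.71.

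**Figure D2:**
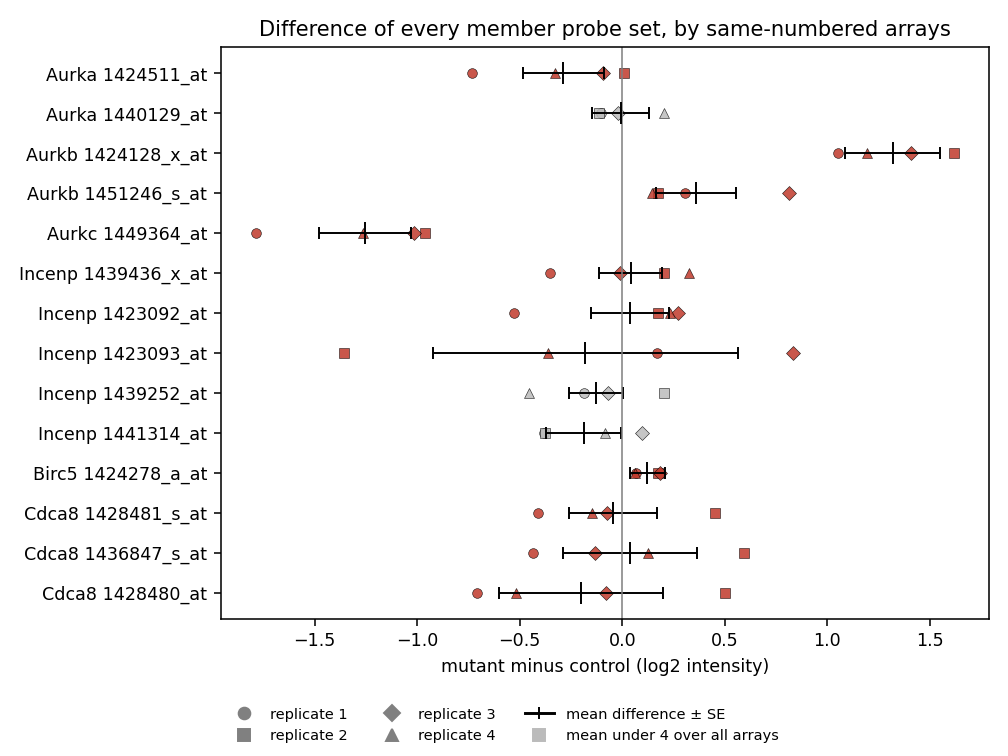
Mutant minus control log2 intensity of all 14 member probe sets, with 1 symbol for each pair of arrays of the same replicate number and a black bar for the mean difference ± SE. Grey symbols are the 3 probe sets with a mean under 4, and the 4 pairs lie on 1 side of 0 for Aurkb, Aurkc and Birc5.

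Across the whole table, limma called 2 of the 14 member probe sets at an adjusted p under 0.05, those of Aurkc (1449364_at) and Aurkb (1424128_x_at), where 1.42% of all probe sets were called. The 2 groups lay fully apart for 3 of the 14, Aurkb and Birc5 higher and Aurkc lower in mutant arrays, as they did for 9.48% of all probe sets. Both counts come from the contrast that was known when the members were chosen, and nothing is read from them. The median difference over all probe sets was -0.03.

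Aurkc and Aurkb were set beside the Sertoli marker mean of each array. The 4 control arrays, with the lowest marker means, had the highest Aurkc values, and mutant array 2, with the lowest marker mean of the mutant arrays (5.80), had the highest Aurkc value among them. With the marker mean as a covariate the difference of Aurkc was -0.48 (SE 0.31), against -1.26 (SE 0.22) without it. That of Aurkb (1424128_x_at) was 2.20 (SE 0.27), against 1.32 (SE 0.23) without it. Mutant array 2 had the lowest marker mean of the mutant arrays and the highest Aurkb value. No mutant array had a marker mean as low as any control array, so both values are extrapolated. Without control arrays 1 and 3 the differences were -1.14 (SE 0.21) for Aurkc and 1.12 (SE 0.28) for Aurkb. The part of Sertoli cells or of germ cells at other stages in these differences was not tested.

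**Figure D3:**
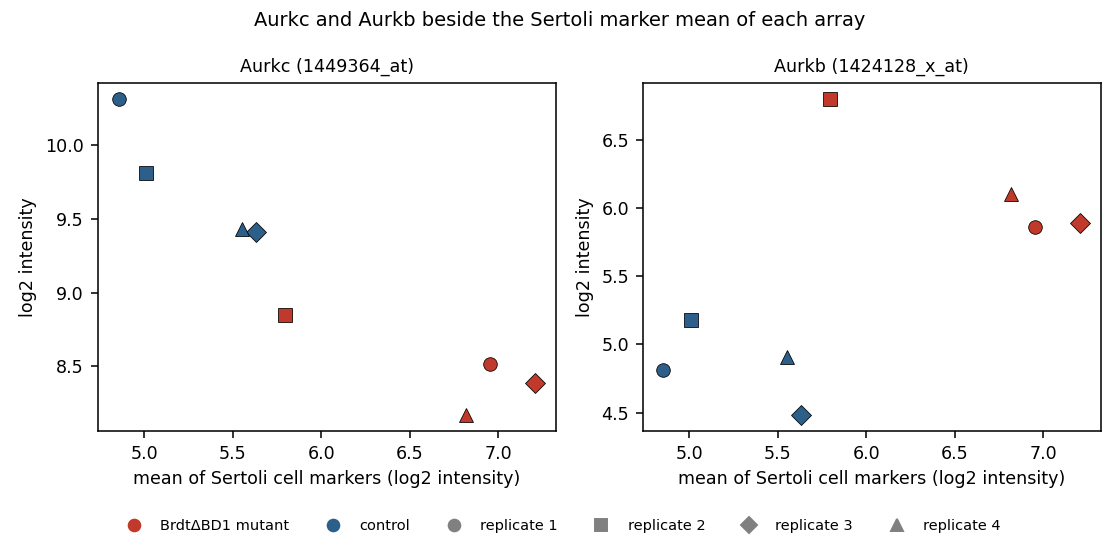
Log2 intensity of Aurkc (1449364_at, left) and Aurkb (1424128_x_at, right) against the Sertoli marker mean of each array. That mean is over 23 genes, with Trh in place of the listed marker Trf. Mutant arrays are red, control arrays are blue, and symbols give the replicate number. Mutant arrays lie at marker means of 5.80 to 7.21 and control arrays at 4.85 to 5.63, and mutant array 2 has the highest Aurkb value.

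The genes with the most similar profile over the 8 arrays were named by Pearson correlation between brightest probe sets, over 6914 genes with a mean of at least 5, as a description in which all points share the same arrays and, where a member separates the groups, the same contrast. Aurkc was most like Nasp, a histone chaperone (r = 0.989), Zfp511 (r = 0.985) and Trmo, a tRNA methyltransferase (r = 0.985). Nasp read 13.16 to 13.36 on mutant and 13.59 to 14.00 on control arrays. Aurkb was most like Topors, a ubiquitin and SUMO ligase (r = 0.981), Atp6v1a, a subunit of the vacuolar proton pump (r = 0.978), and Rnls, the renalase gene (r = 0.975). Aurka was most like Hectd4 (r = 0.981), Gkap1 (r = 0.979) and the radial spoke gene Rsph1 (r = 0.971). Genes most like Cdca8 included the histone chaperone gene Nap1l4 (r = 0.986) and the dynactin gene Dctn5 (r = 0.978). Birc5 was most like Ino80c, a chromatin remodeller subunit (r = 0.969), Tacc1 (r = 0.960) and the kinetochore gene Dsn1 (r = 0.958). Incenp was most like Rrp15, a ribosome biogenesis gene (r = 0.956), the mitochondrial import gene Samm50 (r = 0.943) and Cds2 (r = 0.938), and for Incenp control array 1 was the highest array.

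Genes that work with the complex were followed next, in 6 lists of 140 measured genes that are not members, by the limma fit over all 18193 genes with Benjamini-Hochberg adjustment. Across all genes 1.86% rose and 1.85% fell. In the lists together 5 genes rose (3.57%) and 1 fell (0.71%), with a median difference of 0.10 beside -0.02 over all genes. These shares rest on few genes, and the Sertoli and spermatogonia marker means given above were higher in the same mutant arrays, a part in these counts that was not tested. The arrays of a replicate number deviated together, and with that number as a block 6.6% of all genes rose and 4.94% fell. The counts of most lists were larger too, as given below beside each.

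Of the genes that bring the complex to centromeres, 0 of 10 passed in limma, and 0 with the replicate block. At an unadjusted p under 0.05, 2 were higher and 0 lower, and the median difference was 0.30. The smallest p belonged to Sgo2a and Cenpc1. Sgo2a, the shugoshin that protects centromeric cohesin in meiosis, was low in both groups. It read 4.24 ± 0.99 in mutant and 3.19 ± 0.24 in control arrays (SD, n = 4 each, limma adjusted p = 0.214). Cenpc1, a centromere protein, had a difference of 0.64 (SE 0.27, limma adjusted p = 0.228). Of the kinases that write the histone marks read by the complex, Haspin and Bub1 were named after their values were seen. Haspin read 13.30, 13.27, 13.36 and 13.57 on mutant arrays, against 13.82, 13.27, 13.27 and 13.79 on control arrays, a difference of -0.16 (SE 0.16). Bub1 read 11.39 in mutant and 11.28 in control arrays, a difference of 0.11 (SE 0.10). Neither separated the groups.

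Of the Aurora A activators and spindle-pole genes, 0 of 17 passed in limma, with a median difference of 0.28, and at an unadjusted p under 0.05 the counts were 3 higher and 0 lower. With the replicate block 3 rose. The translational regulator Cpeb1 read 4.27, 3.83, 4.04 and 3.95 on mutant arrays, against 3.52, 3.59, 3.41 and 3.19 on control arrays, low in both groups and without overlap (difference 0.60, SE 0.14; limma adjusted p = 0.0519, and 0.0349 with the block). Tacc2, a centrosomal coiled-coil gene, was also low, at 3.50 in mutant and 2.86 in control arrays (limma adjusted p = 0.125, and 0.0366 with the block). The fit with the block was the 1 of 15 alternatives in which it passed, and its limma adjusted p ran up to 0.978.

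Of the kinetochore and midzone genes, 1 of 28 rose and 0 fell, 3 and 0 with the block, with a median difference of 0.07. The riser was Spc25, a subunit of the NDC80 complex that holds microtubules. It read 9.36, 9.46, 8.92 and 9.02 on mutant arrays, against 8.60, 8.39, 8.05 and 7.75 on control arrays. All mutant arrays were above all control arrays, 1.99-fold on average (limma adjusted p = 0.0383, and 0.00926 with the block). A dim second probe set of Spc25 gave a difference of -0.11 (SE 0.13).

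Of the spindle checkpoint and anaphase-promoting complex genes, 1 of 35 rose and 0 fell, 5 and 1 with the block, with a median difference of 0.06. The riser was Trip13, an ATPase that remodels HORMA-domain proteins in the checkpoint and in meiotic prophase. It read 6.99, 5.95, 6.42 and 5.89 on mutant arrays, against 5.17, 4.01, 5.29 and 4.48 on control arrays, without overlap. The difference was 1.57 (SE 0.34), or 2.98-fold (limma adjusted p = 0.0405, and 0.00612 with the block). That reading comes from 1429295_s_at, whose ending carries the limit given for Aurkb. The other Trip13 probe sets, 1429294_at and 1446760_at, showed 0.41 (SE 0.19) and 0.04 (SE 0.13). Named after their values were seen, Zwilch and Spdl1, a kinetochore complex subunit and the adaptor that brings dynein to it, had differences of 1.71 (SE 0.40) and 0.97 (SE 0.25) without overlap of the groups, and neither passed without the block (limma adjusted p = 0.0524 for Zwilch and 0.0689 for Spdl1, and 0.0332 and 0.0198 with the block).

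Of the Polo, NIMA and other division kinases, 1 of 26 rose and 0 fell, 4 and 1 with the block, with a median difference of -0.04. The riser was Tlk1, a tousled-like kinase that acts on histone chaperones. It read 7.01, 6.46, 7.19 and 6.24 on mutant arrays, against 5.79, 5.49, 5.52 and 5.73 on control arrays, without overlap. The difference was 1.09 (SE 0.21), or 2.13-fold (limma adjusted p = 0.032). Its next probe set, 1456407_a_at, had a difference of 1.32 (SE 0.64). The dim 1439158_at, 1444730_at and 1460002_at had 0.38 (SE 0.15), 0.08 (SE 0.10) and 0.15 (SE 0.15). None of these further probe sets passed in the fit over all probe sets. Plk1, the Polo kinase activated by Aurora A, was named after its values were seen and ran the other way. It read 10.57, 11.23, 10.79 and 10.84 on mutant arrays, against 11.82, 11.89, 11.25 and 11.64 on control arrays. The groups just missed each other, the difference was -0.79 (SE 0.19), and it did not pass without the block (limma adjusted p = 0.0539, and 0.025 with the block).

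Of the phosphatases that oppose the kinases, 2 of 24 rose and 1 fell, 7 and 2 with the block, with a median difference of 0.12. Ppp1ca, a catalytic subunit of protein phosphatase 1, read 9.71, 8.25, 9.09 and 8.63 on mutant arrays, against 6.79, 6.35, 7.42 and 6.75 on control arrays (4.25-fold higher, limma adjusted p = 0.0145). Ppp2ca, a catalytic subunit of protein phosphatase 2A, was 1.90-fold higher, at 9.14 ± 0.38 in mutant and 8.21 ± 0.24 in control arrays (SD, n = 4 each; limma adjusted p = 0.0459). Its dim probe sets 1456390_at and 1439912_at had differences of 0.37 (SE 0.16) and -0.01 (SE 0.16). Ankrd28, a regulatory subunit of protein phosphatase 6, whose complexes act on the Aurora A activation loop, read 9.13, 8.46, 9.16 and 8.77 on mutant arrays, against 10.29, 9.70, 9.99 and 10.19 on control arrays. It was 2.24-fold lower (limma adjusted p = 0.0189), but its second probe set, 1434630_at, had a difference of 0.46 (SE 0.22).

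These calls were sensitive to single arrays and to the features tested. In the limma fit over all probe sets, Spc25 (adjusted p = 0.0571), Trip13 (0.0634) and Ppp2ca (0.0682) missed the threshold, while Tlk1 (0.0466), Ppp1ca (0.0234) and Ankrd28 (0.0276) passed. Spc25 passed without control array 1 and in none of the other 7 fits that left out 1 array, and Trip13 passed without mutant array 2 and in none of the other 7. Tlk1 and Ppp2ca passed without mutant array 2 or 4 and in none of the other 6. Ankrd28 missed the threshold without control array 1, 3 or 4, and Ppp1ca without mutant array 3 or control array 4. None of the 6 passed without both control arrays 1 and 3 or with the Sertoli marker mean as a covariate. Over 16 alternatives, the limma adjusted p ran from 0.00926 to 0.149 for Spc25, from 0.00612 to 0.598 for Trip13, from 0.0192 to 0.547 for Tlk1, from 0.00588 to 0.425 for Ppp1ca, from 0.0171 to 0.589 for Ppp2ca and from 0.00692 to 0.176 for Ankrd28. All 6 kept their direction in all 16.

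**Figure D4:**
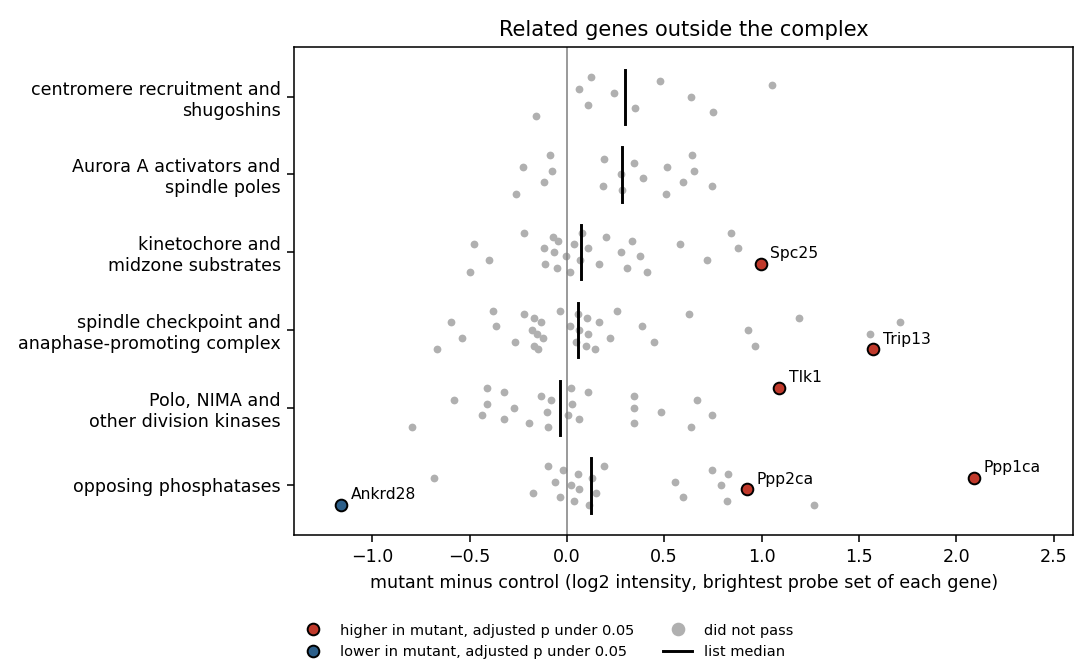
Mutant minus control log2 intensity of every measured gene of the 6 lists of related genes, read by the brightest probe set, with list medians as black lines. Red and blue points are genes higher and lower in mutant arrays at an adjusted p under 0.05, which were Spc25, Trip13, Tlk1, Ppp2ca and Ppp1ca on the higher side and Ankrd28 on the lower side.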

How the data were processed

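Total RNA of round spermatids was hybridised to Affymetrix arrays, 4 per genotype. What the authors deposited is 1 normalised log2 intensity per probe set and array, for which the submitters' processing notes name GCRMA and limma without versions. Scanner files were not used here, so background correction could not be varied. Groups and replicate numbers came from the sample titles. The table holds 45101 probe sets, of which 64 Affymetrix controls were left out. Probe sets were named from the platform annotation (34945 with 1 gene, 932 with several, 9160 unnamed here) and symbols updated through the gene table of GRCm38.p6, which held 34741 of those with 1 gene. Genes are given by chromosome alone, taken from that gene table. A gene was read by its brightest single-gene probe set.

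The fits used limma 3.58.1 in R 4.3.3 over the whole table with genotype as the term, moderated variances, both directions and Benjamini-Hochberg adjustment, with a threshold of 0.05. Rose, fell and passed refer to that threshold. SE are those of the moderated model, without the replicate block unless stated. The code was tested on simulated data in which arrays varied independently, so that test does not cover the shared deviations given below. The number of arrays limits the precision. Arrays of the same replicate number deviated together from their group means (r = 0.40, 0.43, 0.54 and 0.45 over probe sets for numbers 1 to 4), which is why results with that number as a block are given. Members and lists were chosen with earlier results of these data known. From each list of related genes the text names those that passed, or the 2 with the smallest unadjusted p where none did. Outside that rule, Haspin, Bub1, Zwilch, Spdl1 and Plk1 were named after their values were seen. For likeness it names 3 genes per member, leaving out clone and predicted names, and 1 of them is not reported here. Alternatives left out arrays, added a replicate block or the Sertoli marker mean, or changed normalisation, variance model, filter or the reading of a gene. Members without a promoter window in the table were not analysed there.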

Additional observations from a re-analysis of the deposited data

Results flagged for a closer look

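Of 28 groups of 4 arrays checked (14 member probe sets in 2 genotypes), 1 held an array whose gap to its nearest neighbour was above Dixon's critical value at the 95% level, where chance flags about 1 group in 20. It was the mutant group of Aurka (1424511_at), in which mutant array 2 read 12.38 and the other 3 read 11.69 to 11.79, a gap that took 0.859 of the group's range.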

How the results depend on the processing

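Aurkc (1449364_at) stayed lower and Aurkb (1424128_x_at and 1451246_s_at) and Birc5 higher in mutant arrays in all 13 alternatives run for member probe sets. Leaving out 1 array gave -1.38 to -1.07 for Aurkc and 1.10 to 1.43 for Aurkb (1424128_x_at). The mean of both Aurkb probe sets gave 0.84. The replicate block left the member differences as they were and changed their SE. With it the SE was 0.16 for Aurkc, 0.12 and 0.14 for Aurkb (1424128_x_at and 1451246_s_at) and 0.09 for Birc5. It was 0.14 for Aurka (1424511_at), 0.13 for Incenp (1439436_x_at) and 0.15 for Cdca8 (1428481_s_at). Without control replicates 1 and 3 the differences of the Incenp probe sets 1439436_x_at and 1423093_at were 0.29 and -1.53. With the Sertoli marker mean as a covariate, which extrapolates, they were 0.53 for Aurka (1424511_at), 2.20 and 0.86 for the Aurkb probe sets 1424128_x_at and 1451246_s_at, -0.48 for Aurkc and 0.25 for Birc5. In that fit they were 0.59, -0.31 and 0.28 for the Incenp probe sets 1423092_at, 1439252_at and 1441314_at, and 0.85, 1.09 and 1.54 for the Cdca8 probe sets 1428481_s_at, 1436847_s_at and 1428480_at. The signs of Aurka (1424511_at), of the Cdca8 probe sets 1428481_s_at and 1428480_at and of the Incenp probe sets 1423093_at and 1441314_at turned there, and the cause was not tested.

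Over all features 639 probe sets and 675 genes passed. The paired fit, with the replicate block, gave 2894 and 2100, the fit without control replicates 1 and 3 gave 35 and 68, the Sertoli covariate 2 and 1, and renewed quantile normalisation 993 and 1040. Leaving out 1 array gave 189 (without mutant array 3) to 1323 probe sets and 199 to 1131 genes (without mutant array 2). For the lists of related genes, the replicate block gave 3 Aurora A and spindle-pole genes, 3 kinetochore and midzone genes, 6 checkpoint genes, 5 division kinases and 9 phosphatases. It changed no call among the 6 genes that passed. Among the other named genes Cpeb1, Tacc2, Zwilch, Spdl1 and Plk1 passed with it, and Sgo2a, Cenpc1, Haspin and Bub1 did not. Without control replicates 1 and 3, and also with the Sertoli covariate, 0 kinetochore, 0 checkpoint, 0 division kinase and 0 phosphatase genes passed. Leaving out 1 array gave 0 to 2 Aurora A genes, 0 to 1 kinetochore genes, 0 to 2 checkpoint genes, 0 to 2 division kinases and 0 to 4 phosphatases. Quantile normalisation gave 1 Aurora A gene and 2 division kinases, trended and robust variances gave 2 checkpoint genes and 2 division kinases, and so did a minimum mean of 4. With the mean of all probe sets of a gene, 1 Aurora A gene, 0 checkpoint genes, 0 division kinases and 1 phosphatase passed. The dim probe sets of Aurka (1440129_at) and Incenp (1439252_at and 1441314_at) lie near the floor, which limits what could be seen with them.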
